A study of Mus musculus with 8 samples.

Results

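The genes described here encode the secreted and membrane-bound metalloproteinases that cut the extracellular matrix, together with their inhibitors: the matrix metalloproteinases (MMPs), the ADAMTS proteases, the related ADAMTS-like proteins and the tissue inhibitors of metalloproteinases (TIMPs). Members were taken from the deposited count table by their symbols, which gave 42 of 16536 genes: 14 MMPs, 19 ADAMTS genes, 5 ADAMTS-like genes and 4 TIMPs. The symbols *Mmp8*, *Mmp9* and *Mmp13* were left out by that rule. The rule used symbols only and no expression values, but it was set with earlier results of these data known.

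The libraries came from Pthrp-mCherry mice, which carry an mCherry reporter at the gene for parathyroid hormone-related protein, a product of the resting zone of the growth plate. Mice received either DMSO, the vehicle, or SAG, an agonist of Smoothened that activates Hedgehog (Hh) signaling, at 25 μg per g body weight by daily intraperitoneal injection. Injections ran from P30 to P36 according to the series description and from P31 to P37 according to the study's methods, and all mice were sacrificed at P38. The femoral growth plates, labelled as metaphyseal, were digested with collagenase P, cells positive for both mCherry and the surface protein CD73 were sorted, and their RNA was sequenced in bulk, with 4 DMSO-treated and 4 SAG-treated mice and 1 library per mouse, made from both femora of that mouse. The study used both sexes, and the sex of each mouse is not used here. The comparison asks how systemic SAG altered RNA levels in the sorted cells.

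Cartilage matrix consists mainly of type II collagen and aggrecan, and it is remodeled as the growth plate lengthens the bone. Secreted MMPs are made as inactive precursors, and the membrane-type MMPs act at the cell surface, where MMP14 with bound TIMP2 activates MMP2. ADAMTS proteases fall into groups that cut aggrecan and versican, that trim the ends of fibrillar procollagens, that cut cartilage oligomeric matrix protein (COMP), or that associate with fibrillin microfibrils. TIMPs bind the active site of MMPs and, in the case of TIMP3, also of several ADAMTS proteases.

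Libraries held between 24971992 counts (DMSO mouse 4) and 46593090 counts (SAG mouse 4), so that 3 counts corresponded to between 0.0670 and 0.114 CPM, the library-scaled count used here, in which each library is brought to the same total after correction by the trimmed mean of M-values (TMM). DMSO mouse 4 stood apart: its Spearman correlation over genes with the other DMSO mice was 0.834 to 0.868, against 0.926 to 0.938 among those 3 mice and 0.859 to 0.883 between DMSO mouse 4 and the SAG mice. It also had the fewest detected genes, 14416. The summed level of 14 chondrocyte markers, led by *Col2a1*, was 50126 to 118929 CPM in DMSO mice and 20628 to 57388 CPM in SAG mice, so cartilage genes were abundant in every library. The summed level of 12 neutrophil markers was 4983 to 14143 CPM in DMSO mice and 26833 to 42385 CPM in SAG mice. *S100a8* and *S100a9* were among these markers, although neutrophils were not the sorted population. Summed B-lineage markers were at 43.6 to 239 CPM in DMSO mice and 8.40 to 14.7 CPM in SAG mice. Erythroid markers were at 71.0 to 1012 CPM and 52.5 to 752 CPM. DMSO mouse 4 was highest of all mice in the B-lineage and erythroid sums and lowest in the macrophage and megakaryocyte sums. Of the genes behind the sort, *Pthlh* had a log2 fold change of 0.37 (edgeR with Benjamini-Hochberg adjustment, adjusted p = 0.606), and *Nt5e*, which encodes CD73, one of -0.51 (adjusted p = 0.186). Calls of members that changed without DMSO mouse 4 are given with and without it.

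No member passed an adjusted p of 0.05 in edgeR's quasi-likelihood test with Benjamini-Hochberg adjustment over all 15421 genes tested, in which 404 genes (2.62%) were higher and 41 genes (0.266%) were lower after SAG. Of the 42 members 40 were tested, and *Adamts13* and *Adamts20* fell under the filter on low counts. At an unadjusted p under 0.05, 1 member was higher (*Mmp25*), against 9.58% of all genes, and 5 were lower (*Adamts3*, *Adamts9*, *Adamts17*, *Adamts18* and *Mmp14*), against 6.50% of all genes. In 3 members (*Adamts3*, *Adamts9* and *Adamts17*) every SAG mouse lay below every DMSO mouse, against 3.84% of all genes, and in 0 members did every SAG mouse lie above, against 7.90%. Without DMSO mouse 4, edgeR's test with the same adjustment called *Adamts3*, *Adamts9*, *Adamts10* and *Adamts17* lower and *Mmp25* higher. In that fit 2.17% of all genes were called lower and 6.44% higher. Leaving out any other single mouse called no member. With all 8 mice, DESeq2's Wald test called 3 members lower (*Adamts3*, *Adamts9* and *Adamts17*) and 1 higher (*Mmp25*), where it called 3.35% of genes lower and 6.60% higher, and limma's voom with quality weights called the same 4 genes, where it called 2.52% of genes lower and 6.37% higher. Under edgeR with at least 10 counts required in every library, 1 member was called lower (*Adamts9*, with 0.723% of genes lower and 4.64% higher), and with a replicate block 1 was called higher (*Mmp25*, with 2.17% of genes higher and 0.117% lower).

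The estimated log2 fold change of SAG over DMSO was below 0 in 30 of the 40 tested members (75%), against 54.8% of all tested genes, and its median was -0.43, against -0.08 for all genes. In the ADAMTS proteases 16 of 17 tested genes were below 0 and the median was -0.56. The MMPs had a median of -0.24 with 9 of 14 below 0, the ADAMTS-like genes a median of -0.15 with 3 of 5 below 0, and the TIMPs a median of -0.21 with 2 of 4 below 0. The families were not tested against each other. These counts depended on DMSO mouse 1: without it, 11 of the same 17 ADAMTS genes were below 0 with a median of -0.18, and over all members 25 of 41 were below 0 with a median of -0.18, against 52.6% of all genes. Without DMSO mouse 4, 16 of the 17 ADAMTS genes were below 0 with a median of -0.74. In these bulk samples, fewer cells of a type and less RNA per cell cannot be told apart.

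**Figure D1:**
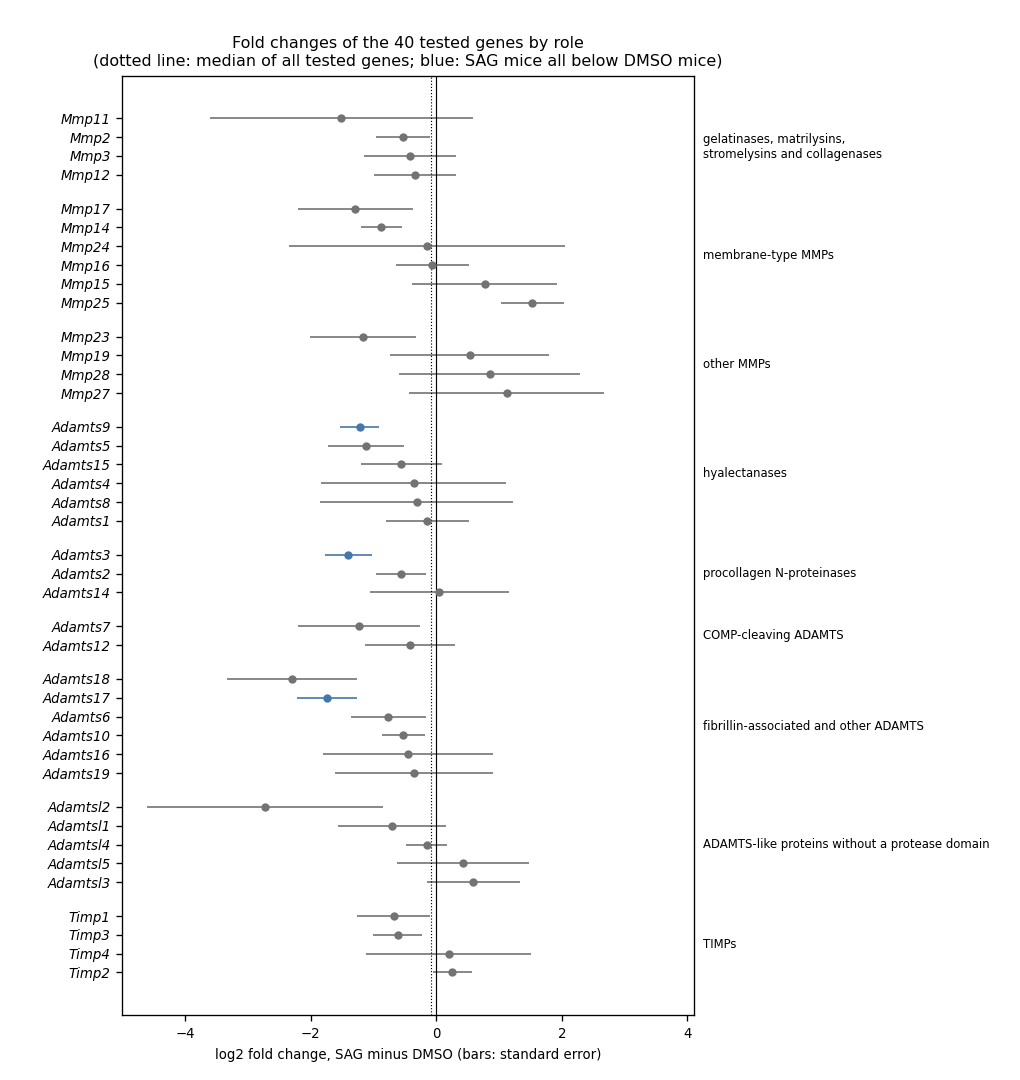
Log2 fold change of SAG over DMSO (x axis) with its standard error for the 40 tested genes, grouped by role, from edgeR's quasi-likelihood fit. *Adamts3*, *Adamts9* and *Adamts17* are blue because all 4 SAG mice lay below all 4 DMSO mice, and the dotted line marks the median of all tested genes at -0.08.

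The 4 genes whose calls differed between tests when all 8 mice were used are shown first by the 250 bases before their RefSeq transcription start (GRCm38.p6, 5′ to 3′ in the direction of transcription). Capitals mark matches, on either strand, to the GC box (GGGCGG), the ETS core (AGGAAG), the cAMP response element core (TGACGT) and the E-box (CACGTG), motifs that were picked after these windows had been read. No marked match shared a base with another. The window of *Adamts3* was chr5:89883335-89883584 (minus strand), that of *Adamts9* chr6:92943535-92943784 (minus strand), that of *Adamts17* chr7:66839485-66839734 (plus strand) and that of *Mmp25* chr17:23645270-23645519 (minus strand).
*Adamts3*: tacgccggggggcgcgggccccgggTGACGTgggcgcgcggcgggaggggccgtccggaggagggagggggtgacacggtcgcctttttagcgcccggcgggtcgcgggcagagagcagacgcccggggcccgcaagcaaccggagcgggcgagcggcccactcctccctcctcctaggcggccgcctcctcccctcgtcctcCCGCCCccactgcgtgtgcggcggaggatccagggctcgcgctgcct
*Adamts9*: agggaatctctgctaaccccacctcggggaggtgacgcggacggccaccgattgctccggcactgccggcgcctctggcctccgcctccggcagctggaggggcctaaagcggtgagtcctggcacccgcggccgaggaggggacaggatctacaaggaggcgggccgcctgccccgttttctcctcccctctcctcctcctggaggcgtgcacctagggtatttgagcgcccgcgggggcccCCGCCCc
*Adamts17*: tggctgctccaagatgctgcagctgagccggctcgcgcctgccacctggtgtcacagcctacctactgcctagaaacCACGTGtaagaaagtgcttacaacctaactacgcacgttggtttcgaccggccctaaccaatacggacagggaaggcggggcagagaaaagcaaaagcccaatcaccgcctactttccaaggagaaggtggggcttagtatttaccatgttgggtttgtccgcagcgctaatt
*Mmp25*: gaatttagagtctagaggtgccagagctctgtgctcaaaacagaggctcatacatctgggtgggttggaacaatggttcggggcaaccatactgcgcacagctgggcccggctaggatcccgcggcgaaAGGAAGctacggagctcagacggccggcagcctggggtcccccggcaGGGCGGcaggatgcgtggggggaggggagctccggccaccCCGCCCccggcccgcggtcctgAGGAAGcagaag

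Of all 32851 RefSeq windows of this length, the GC box was found in 32.7%, the ETS core in 29.5%, the cAMP response element core in 6.47% and the E-box in 6.02%. Among the 28 members with a window, 20 held a GC box in at least 1 of their 30 windows (71.4%). This is a share of genes, whereas the shares above are of windows, and they were not tested against each other. The windows of *Adamts3*, *Adamts9* and *Mmp25* held it, and that of *Adamts17* did not. Their GC content was 78.0% for *Adamts3*, 71.2% for *Adamts9*, 54.4% for *Adamts17* and 66% for *Mmp25*. None of the 4 windows contained the AP-1 letters TGANTCA (in 6.75% of all windows), the GLI letters GACCACCCA (0.225%), the RUNX letters TGTGGT (14%) or the TATA letters TATAAA (12.4%), which says only that these letters are absent from these windows.

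Per kilobase of exon, TIMPs and a few MMPs led the family. Averaged over all 8 mice, *Timp2* was highest at 66.9 CPM per kilobase, followed by *Timp1* at 40.6, *Mmp2* at 37.7, *Timp3* at 25.1, *Mmp25* at 19.4 and *Mmp14* at 14.1. The most abundant ADAMTS genes on this scale were *Adamts10* at 5.92, *Adamts3* at 5.05 and *Adamts9* at 3.74 CPM per kilobase, and *Adamtsl4* led the ADAMTS-like genes at 5.16. The order differed between the groups. In DMSO mice *Adamts3* (7.32 ± 2.46 CPM per kilobase) was level with *Adamts10* (6.99 ± 3.19) within their SD, and in SAG mice *Adamts10* (4.86 ± 0.478) led *Adamts1* (2.96 ± 2.03), *Adamts3* (2.78 ± 1.13), *Adamts2* (2.43 ± 0.274) and *Adamts9* (2.24 ± 0.708). The mean of *Mmp25* was below that of *Mmp14* in DMSO mice (9.95 ± 9.63 against 18.2 ± 6.70 CPM per kilobase), with overlapping SD. It was above that of *Mmp14* in SAG mice (28.8 ± 6.55 against 9.93 ± 4.03). DMSO mouse 4 went against the order of the DMSO means. It had 129.3 CPM of *Mmp25* over 5303 bases of exon and 73.4 CPM of *Mmp14* over 5960 bases. The lowest members over all mice were *Adamts13*, the protease of von Willebrand factor, at 0.0668 and *Timp4* at 0.0796 CPM per kilobase.

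**Figure D2:**
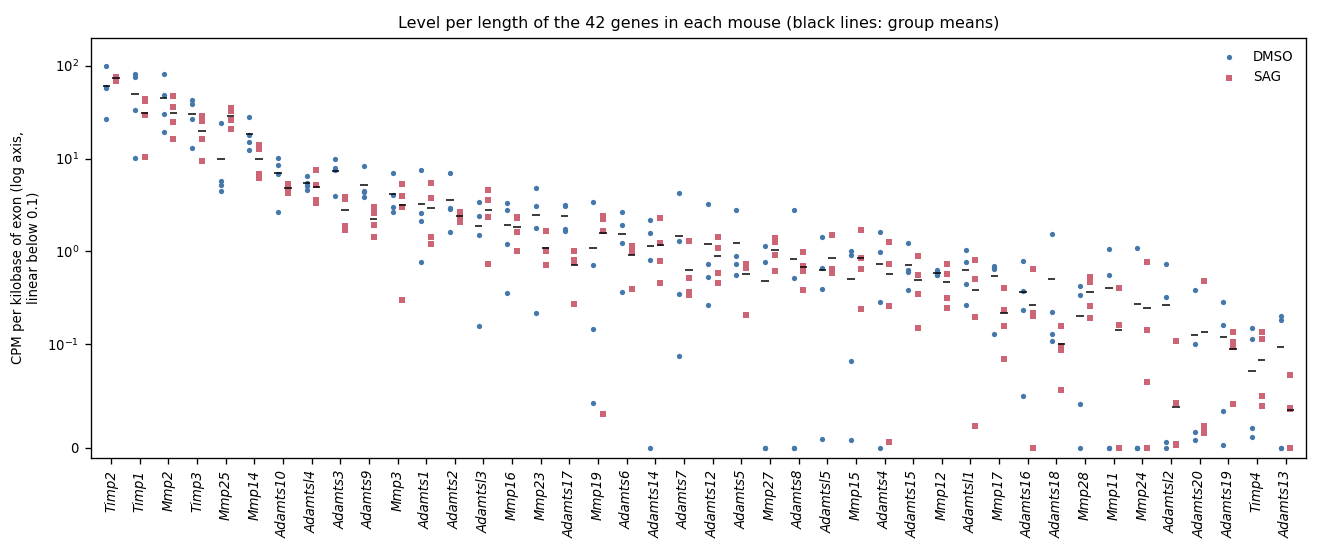
Level of each of the 42 genes in each mouse as CPM per kilobase of exon (y axis, logarithmic above 0.1 and linear below), ordered by the mean over all 8 mice, with DMSO as circles, SAG as squares and group means as black lines. *Timp2* is first at 66.9 CPM per kilobase and *Adamts13* last at 0.0668.

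Among the procollagen N-proteinases, which remove the amino-terminal propeptide of fibrillar collagens, *Adamts3* had the lower values in SAG mice. *Adamts3* (chromosome 5, 89677087 to 89883334, GRCm38, minus strand) was at 40.4, 53.9, 42.9 and 21.7 CPM in DMSO mice 1 to 4 and at 20.7, 10.3, 9.24 and 20.1 CPM in SAG mice 1 to 4. The groups did not overlap, but the lowest DMSO mouse, mouse 4, came within about 1 CPM of the highest SAG mouse. Its log2 fold change was -1.40 (SE 0.376, 95% interval -2.22 to -0.57, n = 4 per group, edgeR's quasi-likelihood test with Benjamini-Hochberg adjustment, adjusted p = 0.0743). Without DMSO mouse 4 it was -1.57 (edgeR's test, Benjamini-Hochberg adjusted p = 0.0123). *Adamts3* was called in only 1 of the 8 fits that left out a single mouse, with adjusted p up to 0.222 in edgeR's test. *Adamts2*, which acts on fibrillar procollagens of several types, was at 64.5, 27.4, 26.7 and 15.1 CPM in DMSO mice and at 22.4, 24.9, 19.2 and 24.1 CPM in SAG mice. SAG mice were close to each other and lay inside the DMSO range, and the log2 fold change of *Adamts2* was -0.56 (SE 0.395, edgeR with Benjamini-Hochberg adjustment, adjusted p = 0.556). The third gene of the group, *Adamts14*, ranged from 0 to 11.3 CPM in DMSO mice and from 2.38 to 11.8 CPM in SAG mice.

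The hyalectanases cut aggrecan and versican, and all 6 tested members had a fold change below 0. *Adamts9* (chromosome 6, 92772699 to 92943492, minus strand), which cuts versican, was at 66.5, 66.2, 124.9 and 57.4 CPM in DMSO mice and at 39.3, 21.6, 28.6 and 45.5 CPM in SAG mice. The groups did not overlap, and DMSO mouse 3 was far above the other DMSO mice. The log2 fold change of *Adamts9* was -1.22 (SE 0.313, 95% interval -1.91 to -0.54, edgeR's quasi-likelihood test with Benjamini-Hochberg adjustment, adjusted p = 0.0635). It was -1.32 without DMSO mouse 4 (edgeR's test, Benjamini-Hochberg adjusted p = 0.0196). *Adamts9* was called in only 1 of the 8 fits that left out a single mouse, with adjusted p up to 0.185 in edgeR's test. Exons of other genes on the opposite strand cover 12% of its exon length. *Adamts1*, another versican-cleaving protease, was at 40.1, 13.7, 11.3 and 4.1 CPM in DMSO mice and at 7.56, 6.42, 19.9 and 29.0 CPM in SAG mice. The groups overlapped almost fully, and its log2 fold change of -0.14 (SE 0.668, edgeR with Benjamini-Hochberg adjustment, adjusted p = 0.952) was 0.70 without DMSO mouse 1. *Adamts5*, the main aggrecan-cleaving protease of mouse cartilage, was at 30.2, 9.58, 6.04 and 7.90 CPM in DMSO mice and at 7.39, 7.2, 7.97 and 2.21 CPM in SAG mice. DMSO mouse 1 carried most of this difference: the log2 fold change of *Adamts5* was -1.12 (edgeR with Benjamini-Hochberg adjustment, adjusted p = 0.417) with all mice and -0.34 without it. *Adamts4*, *Adamts8* and *Adamts15* had group ranges that overlapped, from 0 to 13 CPM in DMSO mice and from 0.0249 to 9.34 CPM in SAG mice. *Adamts20* had between 0.0670 and 3.44 CPM in DMSO mice and between 0.125 and 4.38 CPM in SAG mice.

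The group of ADAMTS proteases linked to fibrillin microfibrils, with others of less well known substrates, was also below 0 in 6 of 6 tested genes. *Adamts17* (chromosome 7, 66839735 to 67153171, plus strand), a gene whose loss causes short stature in people, was at 23.7, 24.5, 13.6 and 12.8 CPM in DMSO mice and at 2.10, 5.99, 7.92 and 6.29 CPM in SAG mice. All SAG mice lay below all DMSO mice, and the log2 fold change was -1.74 (SE 0.475, 95% interval -2.78 to -0.70, edgeR's quasi-likelihood test with Benjamini-Hochberg adjustment, adjusted p = 0.0773). Without DMSO mouse 4 it was -1.86 (edgeR's test, Benjamini-Hochberg adjusted p = 0.0275). *Adamts17* was called in only 1 of the 8 fits that left out a single mouse, with adjusted p up to 0.208 in edgeR's test. *Adamts10*, its close relative, was at 69.5, 83.0, 56.6 and 21.7 CPM in DMSO mice and at 39.6, 42.6, 34.7 and 43.4 CPM in SAG mice. DMSO mouse 4 was the lowest of all 8 mice for *Adamts10* and the other DMSO mice were above every SAG mouse. The log2 fold change of -0.53 (SE 0.343, edgeR with Benjamini-Hochberg adjustment, adjusted p = 0.517) became -0.77 (adjusted p = 0.0397) without DMSO mouse 4. *Adamts10* was called in only 1 of the 8 fits that left out a single mouse, with adjusted p up to 0.792 in edgeR's test. *Adamts18* was at 1.12, 2.26, 1.33 and 15.7 CPM in DMSO mice and at 1.01, 0.570, 1.59 and 0.958 CPM in SAG mice. Its log2 fold change of -2.30 (edgeR with Benjamini-Hochberg adjustment, adjusted p = 0.303) rested on DMSO mouse 4 and was -0.57 without it. *Adamts6*, *Adamts16* and *Adamts19* had log2 fold changes between -0.76 and -0.35, with overlapping groups.

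The COMP-cleaving pair showed wide spread. *Adamts7* was at 8.07, 0.558, 2.20 and 26.4 CPM in DMSO mice and at 8.19, 2.14, 2.29 and 3.26 CPM in SAG mice, with a log2 fold change of -1.23 (SE 0.971, edgeR with Benjamini-Hochberg adjustment, adjusted p = 0.615) that was 0.17 without DMSO mouse 4. *Adamts12* was at 35.4, 7.99, 5.80 and 2.92 CPM in DMSO mice and at 15.7, 4.97, 12 and 6.39 CPM in SAG mice, with a log2 fold change of -0.42 (SE 0.715, edgeR with Benjamini-Hochberg adjustment, adjusted p = 0.853) that was 0.81 without DMSO mouse 1. For each gene the direction was reversed in 1 of the 8 fits that left out a single mouse. *Adamts13* had counts of 43, 0, 0 and 24 in DMSO mice and 12, 8, 0 and 8 in SAG mice.

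The summed level of the 19 ADAMTS genes was 442.9, 327.6, 331.7 and 197.5 CPM in DMSO mice and 199.1, 148.6, 173.4 and 208.9 CPM in SAG mice, a mean of 325 ± 100 against 183 ± 27.1 CPM (SD, n = 4). DMSO mice 1 to 3 were above every SAG mouse, and DMSO mouse 4 lay within the SAG range. The summed chondrocyte markers moved with it: 118929, 104656, 90292 and 50126 CPM in DMSO mice and 55993, 20628, 48915 and 57388 CPM in SAG mice. DMSO mouse 4 was lowest and DMSO mouse 1 highest of the DMSO mice in both sums, and the SAG mice had the same order in both. All 14 chondrocyte markers had a fold change below 0, with a median of -1.03. In edgeR's test 13 of them had an unadjusted p under 0.05 and 0 an adjusted p under 0.05, and in 3 the groups did not overlap. The 6 markers of hypertrophic chondrocytes, the enlarged cells at the base of the growth plate, had a median of -1.95. Their sum was 1330, 991, 535 and 774 CPM in DMSO mice and 237, 260, 330 and 384 CPM in SAG mice, with no overlap. Of these 6 markers *Col10a1* and *Ihh* fell in edgeR's test with Benjamini-Hochberg adjustment (adjusted p = 0.0368 and 0.0238). The groups overlapped for *Col10a1*, with DMSO mouse 3 at 14.1 CPM and SAG mice at 9.57 to 33.7 CPM. DESeq2's Wald test called both genes (adjusted p = 0.00224 and 4.73e-06), and limma's voom with quality weights called neither (adjusted p = 0.156 and 0.0506). In edgeR, the replicate block also called neither (adjusted p = 0.192 and 0.0778). Leaving out 1 mouse gave adjusted p from 0.0279 to 0.121 for *Col10a1*, which stayed called only without DMSO mouse 3, and from 0.0148 to 0.0789 for *Ihh*, which stayed called only without DMSO mouse 3, DMSO mouse 4 or SAG mouse 1. The part of chondrocyte or hypertrophic chondrocyte content in the ADAMTS values was not tested.

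Membrane-type MMPs held the member whose mean CPM was most above that of DMSO mice, *Mmp25*. *Mmp25* (chromosome 17, 23628311 to 23645277, minus strand), which encodes leukolysin, a membrane-anchored protease known from neutrophils, was at 27.3, 23.8, 30.7 and 129.3 CPM in DMSO mice and at 110.5, 187.6, 138.7 and 173.4 CPM in SAG mice. DMSO mice 1 to 3 were far below every SAG mouse, while DMSO mouse 4 was above SAG mouse 1. The log2 fold change of *Mmp25* was 1.53 (SE 0.498, 95% interval 0.44 to 2.62, edgeR's quasi-likelihood test with Benjamini-Hochberg adjustment, adjusted p = 0.138). Without DMSO mouse 4 it was 2.51 (SE 0.230, edgeR's test, Benjamini-Hochberg adjusted p = 8.17e-04). *Mmp25* was called in only 1 of the 8 fits that left out a single mouse, with adjusted p up to 0.329 in edgeR's test. The summed neutrophil markers were at 5957, 4983, 9892 and 14143 CPM in DMSO mice and at 26833, 42385, 28708 and 37222 CPM in SAG mice. Within each group the mice had the same order for *Mmp25* and for the neutrophil sum, and DMSO mouse 4 was highest of the DMSO mice in both. Of the 12 neutrophil markers 8 rose in edgeR's test and 9 had every SAG mouse above every DMSO mouse, while *Elane*, *Mpo* and *Prtn3*, granule genes of immature neutrophils, had overlapping groups. No marker of the list was at 0 in all libraries. The part of neutrophils in the *Mmp25* values was not tested.

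*Mmp14*, the membrane-type collagenase that bone and cartilage remodeling depends on, was at 164.9, 105.8, 89.5 and 73.4 CPM in DMSO mice and at 83.6, 36.5, 40.8 and 75.9 CPM in SAG mice. SAG mice 1 and 4 lay above DMSO mouse 4, and its log2 fold change was -0.87 (SE 0.328, 95% interval -1.59 to -0.15, edgeR's quasi-likelihood test with Benjamini-Hochberg adjustment, adjusted p = 0.204). *Mmp15*, *Mmp16*, *Mmp17* and *Mmp24* had overlapping groups and log2 fold changes between -1.29 and 0.77. *Mmp24* was at 0 in DMSO mice 1 to 3 and in SAG mouse 4, and its 2 highest values were 5.09 CPM in DMSO mouse 4 and 3.62 CPM in SAG mouse 1.

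Among the secreted gelatinases, stromelysins and elastases of this set, which leaves out *Mmp9*, *Mmp2* was by far the most abundant. *Mmp2*, gelatinase A, was at 273.6, 102.6, 160.9 and 64.3 CPM in DMSO mice and at 157.8, 54.9, 82.6 and 120.7 CPM in SAG mice. The ranges overlapped broadly, and its log2 fold change was -0.53 (SE 0.425, 95% interval -1.46 to 0.40, edgeR with Benjamini-Hochberg adjustment, adjusted p = 0.620) with all mice and -0.07 without DMSO mouse 1. That mouse also had 4976 CPM of the fibroblast and perichondrium markers, against 600 to 3636 CPM in the other DMSO mice and 905 to 5320 CPM in SAG mice. Of these sums *Prg4* alone gave 2059 CPM in DMSO mouse 1, 3249 CPM in DMSO mouse 3 and 4519 CPM in SAG mouse 4. DMSO mouse 1 had 7385 CPM of the osteoblast and osteocyte markers, and *Col1a1* alone gave 5971 CPM of it and *Ibsp* 1234 CPM. The other DMSO mice had 1206 to 2740 CPM of these markers and the SAG mice 1354 to 3467 CPM. The part of fibroblast, perichondrium, osteoblast or osteocyte content in the *Mmp2* values was not tested. *Mmp3*, stromelysin 1, was at 5.46, 7.30, 12.5 and 4.82 CPM in DMSO mice and at 7.10, 0.547, 9.54 and 5.36 CPM in SAG mice, and its log2 fold change was -0.42 (SE 0.734, edgeR with Benjamini-Hochberg adjustment, adjusted p = 0.858). *Mmp12*, macrophage elastase, was steady in DMSO mice at 4.02 to 4.62 CPM and ranged from 1.80 to 5.32 CPM in SAG mice. *Mmp11*, stromelysin 3, was at 0 in 4 libraries.

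The remaining MMPs of this set were low. *Mmp23* was at 0.513, 4.18, 7.25 and 11.3 CPM in DMSO mice and at 2.36, 2.40, 3.86 and 1.66 CPM in SAG mice, with a log2 fold change of -1.17 (SE 0.844, edgeR with Benjamini-Hochberg adjustment, adjusted p = 0.566) that was -0.60 without DMSO mouse 4. *Mmp19* was at 12.1, 2.52, 0.513 and 0.152 CPM in DMSO mice and at 7.85, 5.82, 8.42 and 0.114 CPM in SAG mice, with a log2 fold change of 0.53 (SE 1.27, edgeR with Benjamini-Hochberg adjustment, adjusted p = 0.899) that was 0.16 without DMSO mouse 4 and 2.38 without DMSO mouse 1. Both genes varied over more than 10-fold among DMSO mice alone. *Mmp27* and *Mmp28* stayed at or below 3.05 CPM in every mouse. Exons of other genes on the opposite strand cover 28.3% of the exon length of *Mmp19* and 12% of that of *Mmp28*, and whether the authors' counting used strand was not given in the sources used here.

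**Figure D3:**
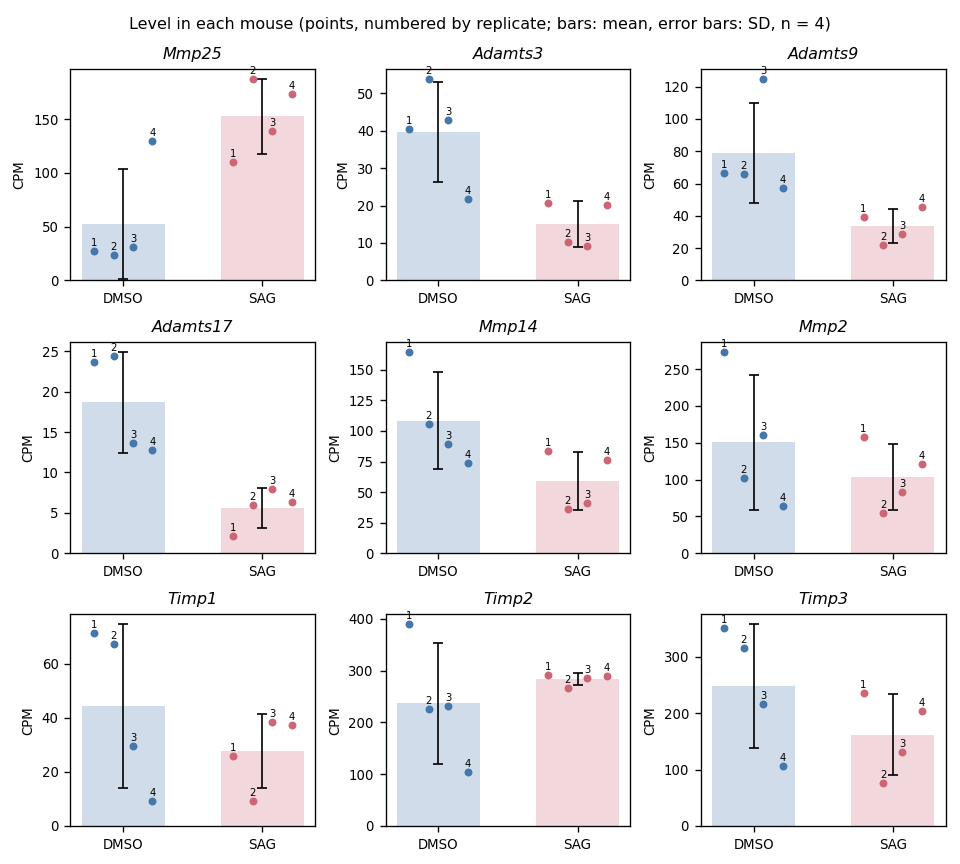
Level in CPM (y axis, from 0) of 9 genes in each mouse, as points numbered by replicate, with bars for the group mean and error bars for the SD (n = 4). SAG mice lie below all DMSO mice for *Adamts3*, *Adamts9* and *Adamts17*, and DMSO mouse 4, at 129.3 CPM, lies among the SAG mice for *Mmp25*.

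The total of the 14 MMP genes, which leaves out *Mmp8*, *Mmp9* and *Mmp13*, was nearly equal in the groups. It was 360 ± 111 CPM in DMSO mice and 360 ± 58.3 CPM in SAG mice (SD, n = 4), but its makeup differed. *Mmp25* made up 5.25%, 8.75%, 8.92% and 42.7% of the counts of these 14 genes in DMSO mice and 27.1%, 60.4%, 45.0% and 41.9% in SAG mice. *Mmp14* made up 31.7%, 38.9%, 26.0% and 24.2% in DMSO mice and 20.5%, 11.7%, 13.2% and 18.4% in SAG mice, with no overlap between the groups. *Mmp2* made up 21.2% to 52.5% in DMSO mice and 17.7% to 38.7% in SAG mice. Shares of one total move against each other, so a higher share of *Mmp25* lowers the other shares by construction. Without *Mmp25*, the MMP sum was 307 ± 137 CPM in DMSO mice and 207 ± 76.6 CPM in SAG mice, and the groups overlapped.

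**Figure D4:**
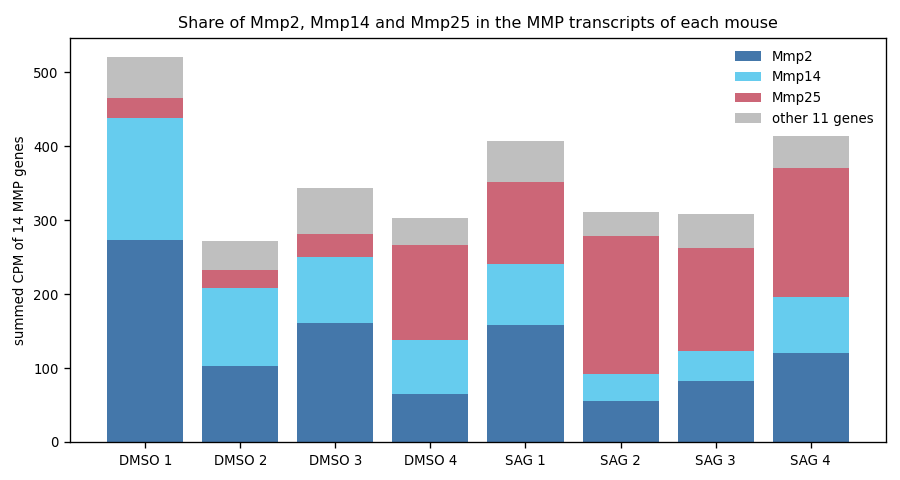
Summed CPM of the 14 MMP genes in each mouse (y axis, from 0), divided into *Mmp2*, *Mmp14*, *Mmp25* and all others. *Mmp25* takes 5.25% to 8.92% of the bar in DMSO mice 1 to 3, 42.7% in DMSO mouse 4 and 27.1% to 60.4% in SAG mice.

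No inhibitor passed the test, and all 4 TIMPs had overlapping groups. *Timp2* was at 389.1, 225.2, 231.0 and 104.1 CPM in DMSO mice and at 292.4, 266.7, 286.2 and 290.3 CPM in SAG mice. SAG mice differed little (coefficient of variation 4.14%), whereas DMSO mice differed widely (49.2%), and the log2 fold change of *Timp2* was 0.26 (SE 0.309, 95% interval -0.42 to 0.94, edgeR with Benjamini-Hochberg adjustment, adjusted p = 0.769) with all mice and 0.04 without DMSO mouse 4. *Timp1* was at 71.4, 67.4, 29.5 and 9.07 CPM in DMSO mice and at 25.8, 9.22, 38.5 and 37.2 CPM in SAG mice, and its log2 fold change was -0.68 (SE 0.585, 95% interval -1.96 to 0.60, edgeR with Benjamini-Hochberg adjustment, adjusted p = 0.652). *Timp3*, the matrix-bound inhibitor, was at 351.3, 316.3, 216.3 and 106.9 CPM in DMSO mice and at 235.3, 75.7, 131.7 and 204.2 CPM in SAG mice, and its log2 fold change was -0.62 (SE 0.395, 95% interval -1.48 to 0.25, edgeR with Benjamini-Hochberg adjustment, adjusted p = 0.508). DMSO mouse 4 was the lowest DMSO mouse for *Timp1*, *Timp2* and *Timp3*. Exons of *Syn3* on the opposite strand cover 21.3% of the exon length of *Timp3*. *Timp4* stayed at or below 0.893 CPM in every mouse. The ratio of summed MMP CPM (14 genes, without *Mmp8*, *Mmp9* and *Mmp13*) to summed TIMP CPM was 0.641, 0.446, 0.721 and 1.38 in DMSO mice. It was 0.735, 0.883, 0.675 and 0.777 in SAG mice, so that DMSO mouse 4 was above all others. Without *Mmp25* in the MMP sum, the ratio was 0.615 ± 0.158 in DMSO mice and 0.427 ± 0.0844 in SAG mice (SD, n = 4). The groups overlapped, at 0.407 to 0.789 in DMSO mice and 0.350 to 0.535 in SAG mice.

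The ADAMTS-like genes encode matrix proteins without a protease domain. *Adamtsl4*, a fibrillin-binding protein, was at 27.5, 21.3, 19.2 and 23.0 CPM in DMSO mice and at 31.5, 13.8, 14.8 and 21.9 CPM in SAG mice, and its log2 fold change was -0.15 (SE 0.328, 95% interval -0.87 to 0.57, edgeR with Benjamini-Hochberg adjustment, adjusted p = 0.887). *Adamtsl3* was at 11.6, 1.23, 26.6 and 18.5 CPM in DMSO mice and at 18.1, 5.63, 28.0 and 35.4 CPM in SAG mice, and its log2 fold change was 0.59 (SE 0.743, edgeR with Benjamini-Hochberg adjustment, adjusted p = 0.782). The groups overlapped for both genes. *Adamtsl1*, *Adamtsl2* and *Adamtsl5* also had overlapping groups, and their sum with the other ADAMTS-like genes was 50.4 ± 10.01 CPM in DMSO mice and 51.5 ± 18.7 CPM in SAG mice (SD, n = 4).

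The mice that were extreme for these genes were often the same ones. DMSO mouse 1 was the highest DMSO mouse in 19 of the 40 tested members, against 25.5% of all genes, and DMSO mouse 4 the lowest in 21 of 40, against 38.5% of all genes. In the SAG group, mouse 1 was highest in 17 members and mouse 2 lowest in 19, against 26.6% and 25.5% of all genes.

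**Figure D5:**
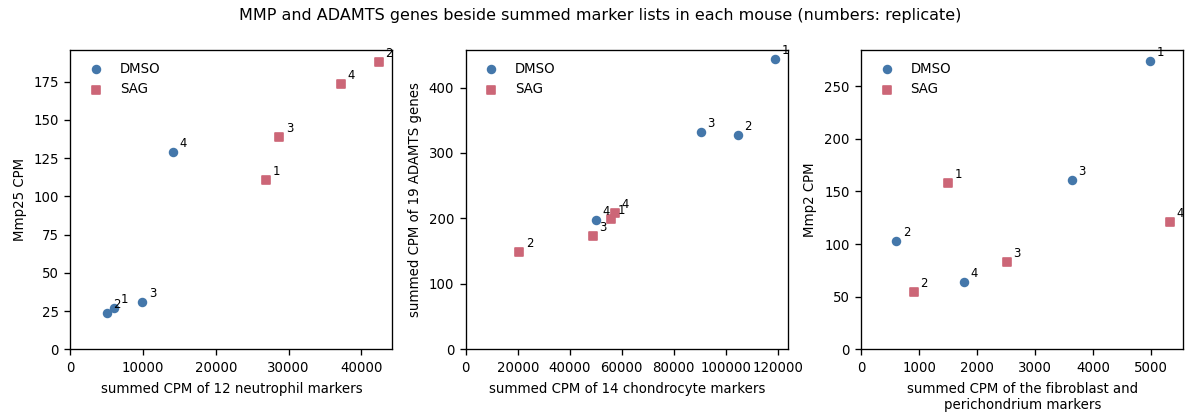
Pairs of values in each mouse, with DMSO as circles, SAG as squares and replicate numbers beside the points: *Mmp25* against 12 summed neutrophil markers, 19 summed ADAMTS genes against 14 summed chondrocyte markers, and *Mmp2* against the summed fibroblast and perichondrium markers (all axes in CPM, from 0). DMSO mouse 4 lies at 129.3 CPM of *Mmp25* and 14143 CPM of neutrophil markers.

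Of 40 other genes of matrix proteolysis (membrane ADAM proteases, procollagen C-proteinases and their enhancers, activating proteases, other inhibitors, clearance receptors and substrates), 39 were tested, of which 0 rose and 1 fell in edgeR's test with Benjamini-Hochberg adjustment. *Fn1*, which encodes fibronectin, fell from 22570, 25055, 17117 and 11911 CPM in DMSO mice to 8751, 4154, 9438 and 8104 CPM in SAG mice, a log2 fold change of -1.33 (SE 0.311, edgeR's quasi-likelihood test with Benjamini-Hochberg adjustment, adjusted p = 0.0445). The groups did not overlap for *Fn1*. DMSO mouse 4 and SAG mouse 2 were the lowest of their groups both for *Fn1* and for the summed chondrocyte markers. The highest mice differed: DMSO mouse 2 and SAG mouse 3 for *Fn1*, and DMSO mouse 1 and SAG mouse 4 for the chondrocyte markers. The call of *Fn1* was lost with the replicate block (adjusted p = 0.112 in edgeR with Benjamini-Hochberg adjustment) and when any mouse other than DMSO mouse 4 was left out (adjusted p from 0.0760 to 0.139), and without DMSO mouse 4 the adjusted p was 0.00737. The part of chondrocyte content in the *Fn1* values was not tested. In 4 further genes of this list the groups did not overlap and none was called. With *Fn1*, every SAG mouse was above DMSO in 2 and below in 3 of the 39 tested genes, against 7.90% and 3.84% of all genes. *Plaur*, the urokinase receptor, had a log2 fold change of 1.06 (SE 0.262, edgeR with Benjamini-Hochberg adjustment, adjusted p = 0.0543) and *Adam19* one of 0.53 (adjusted p = 0.311), and both were above DMSO in every SAG mouse. *Adam17*, the sheddase of tumor necrosis factor, had one of -0.29 (adjusted p = 0.501 in edgeR) and *Spock1* one of -2.19 (adjusted p = 0.142 in edgeR), and both were below DMSO in every SAG mouse. These 4 genes were named after their values were seen. By role, the median log2 fold change was 0.41 for 9 membrane ADAM proteases, -0.75 for 4 procollagen C-proteinases and enhancers, -0.15 for 7 activating proteases and their receptor, -0.78 for 8 other inhibitors, -0.84 for the 2 clearance receptors *Lrp1* and *Mrc2*, and -0.68 for 9 proteoglycan and glycoprotein substrates.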

How the data were processed

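RNA from sorted mCherry+CD73+ cells of 8 mice (RNeasy micro kit, SMARTer Stranded Total RNA-Seq pico v2) had been sequenced by the authors, and the deposited values are whole-number counts per gene, not normalized. The submitters' processing notes name kallisto, DESeq2 and GRCm38, with no versions or roles. If the counts are rounded kallisto estimates, reads shared by related genes were divided between them. Whether strand was used is not given in the sources used here.

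Counts were scaled by TMM and tested with edgeR 4.0.16 (R 4.3.3; filterByExpr, robust quasi-likelihood test, 2-sided, Benjamini-Hochberg adjustment over 15421 genes, threshold 0.05), with SAG against DMSO and no block. SE was the log2 fold change divided by the square root of F. DESeq2 1.42.0 and limma 3.58.1 (voom with quality weights) were alternatives, as were other scalings, filters, a replicate block and leaving out each mouse. Scripts were tested on simulated data. Exon lengths came from GENCODE M21 and promoters from RefSeq.

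Members and gene lists were chosen with earlier results of these data known. Every member is named. Values per mouse are given for members with an adjusted p under 0.05 (0 members), members whose groups do not overlap, and the 2 tested members of each role with the highest CPM per kilobase. *Adamts5*, *Adamts18* and *Timp3* were added after their values were seen. Libraries are from separate mice, so p-values measure the spread between mice. Floors of 3 counts cover counting error only. No 2 libraries held identical values.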

Additional observations from a re-analysis of the deposited data

Results flagged for a closer look

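Within the groups of 4 mice, the highest or lowest mouse was far from the others (Dixon's criterion at the 95% level) in 9 of 90 groups tested, where chance flags about 1 in 20, or 4.5. That rate assumes normally distributed values, which was not checked for these CPM, so 9 against 4.5 is not read as an excess. DMSO mouse 4 was far above the other DMSO mice for *Mmp25* at 129.3 CPM, for *Adamts18* at 15.7 CPM and for *Mmp24* at 5.09 CPM. DMSO mouse 1 was far above them for *Adamts12* at 35.4 CPM and *Adamts5* at 30.2 CPM, and far below them for *Mmp17* at 0.863 CPM. DMSO mouse 3 was far above the others for *Adamts9* at 124.9 CPM. In SAG mice, mouse 1 was far above the others for *Adamtsl5* at 7.10 CPM and mouse 4 far below them for *Adamts5* at 2.21 CPM.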

How the results depend on the processing

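In edgeR's main test 0 members were called in either direction. DESeq2's Wald test called 1 member higher and 3 lower (812 and 413 of all genes), and limma's voom with quality weights 1 and 3 (982 and 388), with a log2 fold change of 2.37 for *Mmp25*. Requiring at least 10 counts in every library called 1 member lower, *Adamts9*, and 87 of all genes lower. The labels share replicate numbers between groups, but the mice differ and same-numbered mice deviated together only weakly (r from -0.01 to 0.26, own number best for 1 of 4 DMSO and 1 of 4 SAG mice). With the replicate block, 1 member was higher (*Mmp25*) and 18 of all genes were lower. Leaving out each mouse in turn gave 0 to 1 members higher and 0 to 4 lower, with 80 to 1017 of all genes higher and 4 to 343 lower, and in these fits members were called only without DMSO mouse 4. The cause of these differences was not tested. Other scalings and no filter called 0 members.

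With voom the log2 fold change was -0.023 for *Adamts14*, 0.43 for *Adamts19*, 0.56 for *Adamts7*, 2.03 for *Adamts8*, 0.51 for *Mmp11*, -0.23 for *Mmp19* and 3.33 for *Mmp24*. With the replicate block it was 0.077 for *Adamts12*, 0.77 for *Adamts19*, 2.93 for *Adamts8*, 0.19 for *Mmp16* and 5.80 for *Mmp24*. Over the fits without 1 mouse it ranged from -0.61 to 0.70 for *Adamts1*, -0.74 to 0.81 for *Adamts12*, -0.48 to 0.57 for *Adamts14*, -1.37 to 0.26 for *Adamts16*, -0.76 to 0.51 for *Adamts19*, -1.13 to 0.40 for *Adamts4*, -1.86 to 0.17 for *Adamts7*, -0.71 to 1.95 for *Adamts8*, -0.0070 to 1.24 for *Adamtsl5*, -0.38 to 0.34 for *Mmp16*, -1.97 to 8.55 for *Mmp24* and -0.16 to 0.81 for *Timp4*. The median of all genes was between -0.14 and 0.02 in all settings, and that of the members between -0.62 and -0.18. The 95% intervals of *Adamtsl2* (-6.85 to 1.39), *Mmp11* (-6.10 to 3.07) and *Mmp24* (-4.96 to 4.67) were wide, and their counts differed widely between mice of a group (0 to 134 in DMSO mice for *Mmp24*). A limit from depth was not tested.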
